A study of Mus musculus with 6 samples.

Results

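The genes described here encode the proteasome of mIMCD3 cells, an immortalised epithelial line from the inner medullary collecting duct of the mouse kidney. They were taken as every probe set (a group of short probes that together report 1 transcript) whose only annotated gene symbol was Psma, Psmb, Psmc, Psmd, Psme, Psmf or Psmg followed by a digit. This gave 58 of 12422 probe sets on the array, for 46 genes. The cells were treated for 1 h with vehicle or with aldosterone, the adrenal steroid that stimulates sodium reabsorption, and the whole experiment was carried out 3 times. Each replication gave 1 vehicle and 1 aldosterone array, so there were 3 arrays per treatment and 6 in all. The hormone dose is not given in the sources used here, and both groups are the same cell line, with no genetic change between them named in the labels. Nothing in the labels says more about the cultures, so the p-values reflect only how these samples spread, which may be technical.

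The 26S proteasome degrades proteins tagged with ubiquitin. Its hollow 20S core consists of stacked rings of alpha subunits (Psma genes), which gate the entry, and beta subunits (Psmb genes), of which Psmb5, Psmb6 and Psmb7 carry the proteolytic sites. The 19S regulatory particle caps the core: its ATPases (Psmc genes) unfold the substrate, and its other subunits (Psmd genes) bind ubiquitin, remove it or hold the particle together. In cells exposed to interferon, and constitutively in many immune cells, Psmb8, Psmb9 and Psmb10 replace Psmb5, Psmb6 and Psmb7 to form the immunoproteasome, which favours peptides suited to presentation on MHC class I molecules. Other members are alternative activators (Psme genes) and chaperones that help to assemble the particle (Psmg genes, Psmd5, Psmd9 and Psmd10).

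By role, the 58 probe sets comprised 19 for 14 constitutive core subunits, 3 for the 3 immunoproteasome subunits, 22 for 17 regulatory particle subunits, 4 for 3 activators and 8 for 7 assembly chaperones. The symbol rule also took in 2 genes that are not subunits, Psmc3ip, a factor of meiotic recombination, and Psme3ip1, a binding partner of the Psme3 activator. Of the family's other genes in RefSeq, the testis subunit Psma8, the thymus subunit Psmb11 and the inhibitor Psmf1 had no probe set under the rule, and the 2 probe sets of the activator Psme2 also carried the symbol Psme2b and were left out.

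Values are intensities after each array was scaled to the same trimmed mean, because the aldosterone array of replication 3 had been deposited on a scale lower by a factor of 28.8. Tests used log2(intensity + 53.0), and probe sets with a mean log2 value below 8.87 were not tested. This kept 7453 probe sets, among them 51 of the 58 proteasome probe sets and 44 of the 46 genes. The 7 dim ones were 2 of Psmb4 and 1 each of Psmb1, Psmc4, Psmc5, Psmd2 and Psme1, and Psmc4 and Psmd2 had no brighter probe set, so they were not tested. The brightest of these, for Psmb4, had a mean log2 value of 8.67, and the dimmest tested, for Psmd11, had 9.20. The epithelial keratins were bright, at 19391 ± 3832 for Krt8 and 14599 ± 1646 for Krt18 with vehicle (SD, n = 3), whereas the collecting duct markers Aqp2, Avpr2 and Hsd11b2 were below the brightness minimum. All 3 probe sets of Ptprc (CD45), which defines leukocytes, were below it too, at 7.96 to 225. Of the 20 probe sets of listed leukocyte genes, 7 were above the minimum, among them Cd14 at 4211 to 6998, Cd74 at 1030 to 2010 and a probe set of Csf1r at 899 to 1491.

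The start regions of 2 immunoproteasome genes and of the subunits they replace are shown, because the comparison of these genes recurs below. The sequences are from RefSeq on GRCm38.p6 and cover the 120 bases before the annotated start, 5′ to 3′ on the gene's strand, at chr14:54617996-54618115 (minus strand) for Psmb5, chr11:70525237-70525356 (plus) for Psmb6, chr17:34198075-34198194 (plus) for Psmb8 and chr17:34187331-34187450 (minus) for Psmb9. Capitals mark matches to any of 4 motifs searched on both strands: TGACNNNGC (core of the antioxidant response element, which the proteasome regulator Nfe2l1 can bind), a pair of GAAA repeats with any 2 bases between them (bound by interferon regulatory factors), TTCNNNGAA (bound by STAT factors) and CCAAT (bound by NF-Y). No capital stretch below covers more than 1 of these motifs.
Psmb5: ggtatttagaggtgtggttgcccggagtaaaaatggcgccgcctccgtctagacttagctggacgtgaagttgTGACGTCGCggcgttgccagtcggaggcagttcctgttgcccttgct
Psmb6: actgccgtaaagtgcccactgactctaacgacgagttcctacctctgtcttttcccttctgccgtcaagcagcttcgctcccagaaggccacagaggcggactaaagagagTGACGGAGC
Psmb8: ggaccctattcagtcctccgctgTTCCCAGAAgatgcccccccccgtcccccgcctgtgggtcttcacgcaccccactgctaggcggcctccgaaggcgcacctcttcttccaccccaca
Psmb9: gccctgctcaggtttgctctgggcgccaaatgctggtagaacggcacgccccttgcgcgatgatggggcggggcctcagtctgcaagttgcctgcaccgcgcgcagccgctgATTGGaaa
The constitutive Psmb5 and Psmb6 each held TGACNNNGC, beginning 47 and 9 bases before the start. Psmb8 held TTCNNNGAA, beginning 97 bases before it, and Psmb9 held CCAAT on the opposite strand, 8 bases before it. Over windows of 300 bases around annotated starts (250 before and 50 after), TGACNNNGC was found in 6 of the 42 windows of 39 member genes (14.3%), against 12.4% of all 32851 windows. TTCNNNGAA was in 3 of the 42 (7.14%, against 8.30% of all), the GAAA pair in 5 (11.9%, against 3.44%) and CCAAT in 15 (35.7%, against 37.4%). Of the 12 constitutive core windows, only the 2 of Psmb5 and Psmb6 held TGACNNNGC (16.7%). None of the 3 immunoproteasome windows held the GAAA pair or TGACNNNGC, and that of Psmb10 held none of the 4 motifs. The start of Psmb9 lies 226 bases from that of Tap1, the peptide transporter gene on the opposite strand, and their windows share 275 bases. These matches are letters in a window and say nothing of binding in these cells.

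Proteasome transcripts showed no difference after 1 h with aldosterone that passed the test. With limma's two-sided test on group alone and Benjamini-Hochberg adjustment over all 7453 probe sets, 0 of the 51 had an adjusted p under 0.05 (0% of all tested were called), and the lowest was 0.9995. An unadjusted p under 0.05 was reached by 0 of the 51, against 0.966% of all tested, and with the replication number as a block by 1, against 3.35%. By sign 24 were higher (49.9% of all tested were) and 27 lower (50.1%), with a median log2 difference (aldosterone minus vehicle) of -0.0010 beside -0.00029 over all tested probe sets. The size of the difference was under 0.1 for 39 of the 51, against 49.5% of all tested, and its median size was 0.057 against 0.10. The proteasome probe sets were also brighter than most, with a median log2 intensity of 12.41 against 11.13, and had a smaller median standard error of the difference, 0.161 against 0.209. How much of the narrower spread goes with brightness was not tested.

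**Figure D1:**
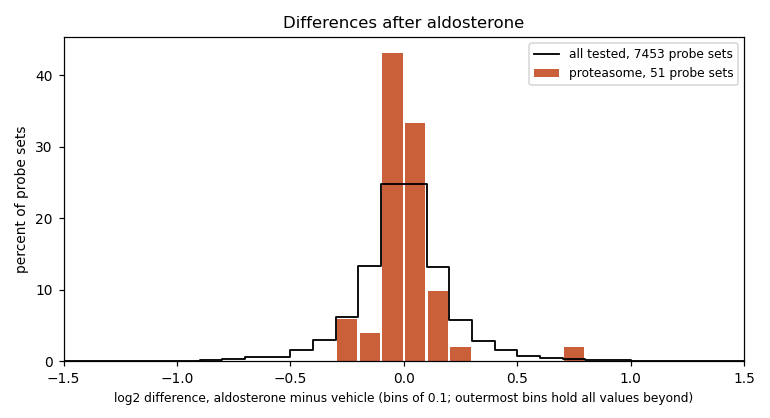
Percent of probe sets (vertical axis) by log2 difference, aldosterone minus vehicle, in bins of 0.1 (horizontal axis), for the 51 tested proteasome probe sets (bars) and all 7453 tested probe sets (line). The bars cluster at the centre, with 39 of 51 under 0.1 in size, and the single bar to the right is the dimmest Psmd11 probe set at 0.72.

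How large a change these 6 arrays could have missed is described by the 95% confidence interval of each difference. For 40 of the 51 probe sets the interval lay wholly within a 1.5-fold change either way (0.58 on the log2 scale), against 49.4% of all tested. With the replication as a block it did so for 47, against 65.7%. By class, on group alone, this held for 7 of 7 alpha ring, 7 of 9 constitutive beta ring, 2 of 3 immunoproteasome, 7 of 7 ATPase, 9 of 12 other regulatory particle, 2 of 3 activator and 4 of 8 chaperone probe sets, and for both genes that are not subunits. The interval of the other 11 reached beyond 1.5-fold on group alone. In the blocked fit this held for 4, a dimmer probe set each of Psmb5, Psmd11 and Psmg3 and the chaperone gene Psmd10.

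The core rings had a median log2 difference of 0.0098 over 16 tested probe sets, 9 higher and 7 lower by sign. Psma6, an alpha ring subunit, gave 15852, 16304 and 16600 on the vehicle arrays of replications 1, 2 and 3, and 18266, 18523 and 18496 on the aldosterone arrays. All 3 aldosterone arrays lay above all 3 vehicle arrays, which occurred for 1 of the 51 proteasome probe sets and for 1.91% of all tested, and the reverse order occurred for 0 of the 51 and 2.27% of all. The log2 differences within the replications were 0.20, 0.18 and 0.16, or 1.13-fold in the mean (16252 ± 377 against 18428 ± 141, SD, n = 3 each). The standard error was 0.106 on group alone (adjusted p = 0.9995 by limma) and 0.0720 with the block (adjusted p = 0.9978). It was the 1 member past an unadjusted 0.05 in the blocked fit. At the lower end of the alpha ring, Psma1 gave 2474, 1907 and 2216 on the vehicle arrays against 2041, 1749 and 2154 on the aldosterone arrays. The aldosterone array was the lower one in each replication, and the groups overlapped (-0.14, standard error 0.176).

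Psmb1, a structural beta subunit, was the other core gene at the upper end, also at a log2 difference of 0.18, in the dimmer of its tested probe sets. That probe set gave 5394, 5796 and 5646 on the vehicle arrays against 5030, 7176 and 7163 on the aldosterone arrays, so aldosterone was the higher in replications 2 and 3 and the lower in replication 1, and the groups overlapped. Its brighter probe set gave -0.011 (standard error 0.128). At the lower end stood the dimmer probe set of Psmb5, the catalytic subunit with chymotrypsin-like activity, at -0.26 with a standard error of 0.222. It gave 1322, 1511 and 1381 on the vehicle arrays against 1429, 1252 and 875 on the aldosterone arrays, the lowest value being that of the rescaled array. The brighter Psmb5 probe set gave 8273, 7425 and 9512 on the vehicle arrays against 7634, 7125 and 9124 on the aldosterone arrays, a little lower in each replication, with the log2 difference being -0.078 (standard error 0.151).

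The regulatory particle had a median log2 difference of -0.0082 over 19 tested probe sets, 7 higher and 12 lower by sign. Its lowest value was that of Psmd14, the subunit that cuts ubiquitin chains from substrates, at -0.22 with a standard error of 0.163. Psmd14 gave 6006, 5162 and 4647 on the vehicle arrays against 3918, 5163 and 4463 on the aldosterone arrays, so that replication 1 had the widest gap and the groups overlapped. The highest value among all members belonged to Psmd11, a scaffold subunit, at 0.72 with a standard error of 0.373 in the dimmest of its 3 probe sets. That probe set gave 221, 526 and 552 on the vehicle arrays against 771, 832 and 532 on the aldosterone arrays, higher in replications 1 and 2 but not in replication 3. The difference was 0.35 without the vehicle array of replication 1, 0.28 without replication 1 and 1.10 without replication 3. The other Psmd11 probe sets were bright and gave -0.0010 (17599 ± 2300 with vehicle and 17506 ± 1143 with aldosterone) and 0.035 (4033 ± 1119 and 4115 ± 1018). The identifier of the dimmest one carries a suffix, as 14 of the 58 do, that marks probe sets chosen under other rules than the plain ones.

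By sign, 36 of the 51 members were lower with aldosterone in replication 1 (70.6%), 22 in replication 2 (43.1%) and 19 in replication 3 (37.3%). For the core these counts were 10, 9 and 4 of 16, and for the assembly chaperones 6, 1 and 3 of 8. In replication 1, 17 of the 19 regulatory particle probe sets were lower with aldosterone (89.5%, against 50.7% of all tested), including 7 of 7 ATPase probe sets, with a median of -0.13. In replication 2 this was 8 of 19 (42.1%, against 48.9%) and in replication 3 again 8 of 19 (42.1%, against 52.6%), with medians of 0.022 and 0.047. Among the ATPases of the base, Psmc1 had the lowest difference, with 5769, 4309 and 4178 on the vehicle arrays against 5068, 4658 and 3890 on the aldosterone arrays (-0.059, standard error 0.176). A probe set of Psmc3 had the highest, with 1872, 1275 and 1727 on the vehicle arrays against 1735, 1465 and 1816 on the aldosterone arrays (0.052, standard error 0.202). In both genes replication 1 was lower with aldosterone, and the groups overlapped. The core rings had medians of -0.048, -0.033 and 0.12 in the 3 replications. Each replication holds 1 array per treatment, so these counts describe pairs of arrays and have no test. The count of 17 of 19 was the same after quantile normalization and after scaling to a common median, while the counts in replications 2 and 3 were 10 and 7 under the former and 5 and 1 under the latter. Over all tested probe sets the share lower in replications 1, 2 and 3 was 52.3%, 49.8% and 49.5% under the former and 63.4%, 40.9% and 34.6% under the latter.

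**Figure D2:**
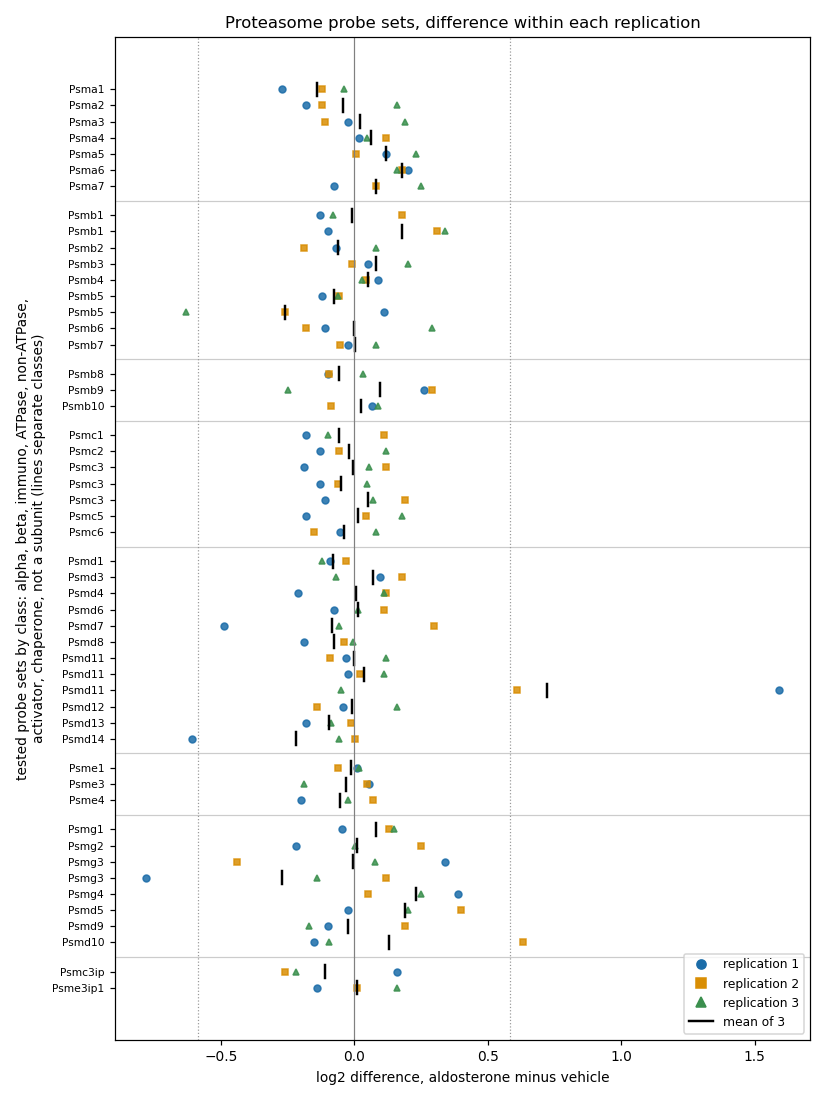
Log2 difference, aldosterone minus vehicle (horizontal axis), for each of the 51 tested proteasome probe sets (vertical axis, 1 line per probe set, by class). Symbols are the 3 replications, black ticks their mean, and dotted lines a 1.5-fold change; the ticks lie between -0.27 and 0.72, and 50 of them lie inside the dotted lines.

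The immunoproteasome subunits had a median log2 difference of 0.023 over the 3 genes, with 2 higher and 1 lower by sign, and 0 of the 3 passed the test. Psmb8, which replaces Psmb5, gave 4777, 4746 and 4554 on the vehicle arrays against 4439, 4434 and 4656 on the aldosterone arrays. These 6 values spanned a narrow range and the groups overlapped (log2 difference -0.057, standard error 0.130, 95% interval -0.35 to 0.24). Psmb10, which replaces Psmb7, gave 4527, 5396 and 3471 on the vehicle arrays against 4745, 5072 and 3696 on the aldosterone arrays. Each aldosterone value stood close to the vehicle value of its own replication, with the log2 difference being 0.023 (standard error 0.198, or 0.104 with the block). Psmb9, which replaces Psmb6, gave 1006, 779 and 1632 on the vehicle arrays against 1212, 962 and 1361 on the aldosterone arrays. It was higher in replications 1 and 2 and lower in replication 3, and on group alone its interval of -0.54 to 0.73 was the only one of the 3 to pass beyond 1.5-fold. With the block it was -0.35 to 0.55, and the intervals of all 3 genes lay within 1.5-fold.

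Among their constitutive counterparts, Psmb5 is given above. Psmb6 gave 12175, 12343 and 11755 on the vehicle arrays against 11239, 10895 and 14420 on the aldosterone arrays, so aldosterone was the higher in replication 3 alone (log2 difference -0.00017, standard error 0.139). Psmb7 gave 12592, 11279 and 10555 on the vehicle arrays against 12379, 10851 and 11169 on the aldosterone arrays (0.00032, standard error 0.127). Within an array, the log2 ratio of an immunoproteasome subunit to its counterpart changed with aldosterone by 0.021 ± 0.065 for Psmb8 over Psmb5, 0.097 ± 0.56 for Psmb9 over Psmb6 and 0.022 ± 0.063 for Psmb10 over Psmb7 (mean ± SD over 3 replications, brightest probe set of each gene). Each change was smaller than its spread between replications. Levels of different probe sets are not compared, since their signals depend on the probes.

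**Figure D3:**
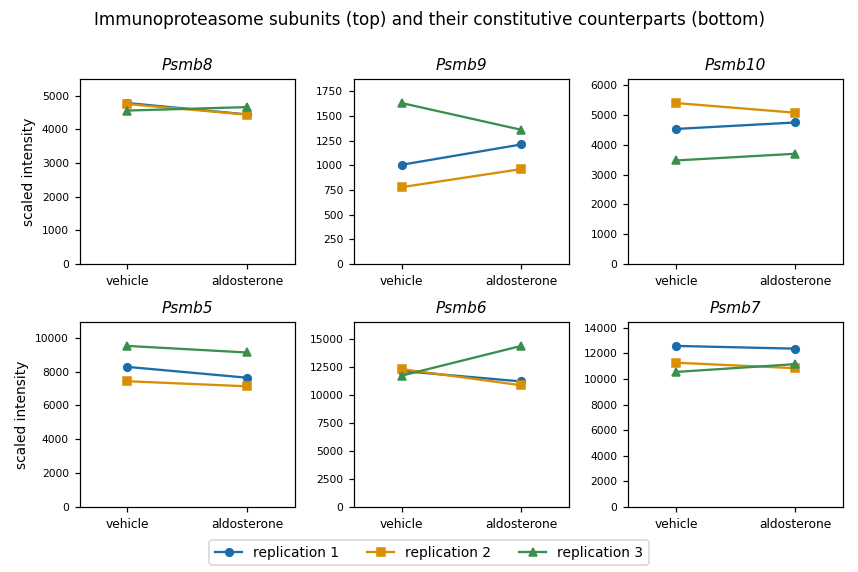
Scaled intensity (vertical axes, from 0) with vehicle and with aldosterone for Psmb8, Psmb9 and Psmb10 (top) and for Psmb5, Psmb6 and Psmb7 (bottom, brightest probe set); each line joins the 2 arrays of 1 replication. The lines of Psmb8 and Psmb10 are close to level, those of Psmb9 slope up in replications 1 and 2 and down in replication 3, and Psmb9 and Psmb10 separate by replication in opposite order, with replication 3 highest for Psmb9 and lowest for Psmb10.

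The activators and chaperones held the other named extremes of their classes. Psme1, a subunit of the interferon-inducible PA28 activator, gave 9803, 10420 and 9201 on the vehicle arrays against 9859, 9988 and 9312 on the aldosterone arrays, the log2 difference being -0.012 (standard error 0.120). Psme4, the PA200 activator, gave 5987, 4577 and 5446 on the vehicle arrays against 5192, 4802 and 5350 on the aldosterone arrays (-0.053, standard error 0.149). In neither did the groups separate. Psmg4, an assembly chaperone of the core, gave 3099, 4267 and 2850 on the vehicle arrays against 4083, 4424 and 3399 on the aldosterone arrays. It was higher in 3 of 3 replications, as were 5 of the 51 members against 10.5% of all tested, and 5 were lower in 3 of 3 against 11.5%. The Psmg4 log2 difference was 0.23 (standard error 0.191, or 0.118 with the block), and its groups overlapped. The chaperone Psmg3 had the lowest value of its class, -0.27 with a standard error of 0.269, in a probe set that gave 1171, 1278 and 1167 on the vehicle arrays against 662, 1390 and 1054 on the aldosterone arrays. Only the aldosterone array of replication 1 was low, and the brighter Psmg3 probe set gave -0.0064. Of the 2 genes that are not subunits, Psmc3ip gave 1329, 1433 and 1498 on the vehicle arrays against 1488, 1185 and 1281 on the aldosterone arrays (-0.11, standard error 0.184). Psme3ip1 gave 4212, 3389 and 2924 on the vehicle arrays against 3830, 3413 and 3264 on the aldosterone arrays (0.010, standard error 0.173), and in neither were the groups separate.

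Probe sets of 1 gene did not always share the sign of the difference, but many of these differences were close to 0, where the sign carries little. Their span within a gene was 0.10 for Psmc3, 0.18 for Psmb5, 0.19 for Psmb1, 0.26 for Psmg3 and 0.72 for Psmd11. The median standard error over the members was 0.161. Of the 5 genes with several tested probe sets (Psmb1, Psmb5, Psmc3, Psmd11 and Psmg3), 2 had differences of 1 sign in all of them, and 1 was highest in the same replication in all of them.

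Differences between the replications were called for proteasome probe sets about as often as for all tested ones. Limma's F test for the replication, in a fit that also held the treatment, called 5 of the 51 probe sets at an adjusted p under 0.05 (9.80%), close to the 7.82% of all tested. These were Psmd1, Psme3, Psmb2, a probe set of Psmd11 and Psmb3. The median ratio of the highest to the lowest replication was 1.22-fold over the members and 1.29-fold over all tested, and it passed 1.5-fold for 8 of the 51, against 23.7% of all. These calls rest on the intensity trend in the variance model. Without it 0 of the 51 were called, against 0.0268% of all tested, and the adjusted p of the 5 was 0.108 to 0.222. With the trend, an unadjusted p under 0.05 was reached by 18 of the 51, against 2053 of all 7453 tested. Without the trend it was reached by 8, for which the share of all tested was not computed.

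Psmd1, the large scaffold subunit of the regulatory particle, read 6390 and 5991 (vehicle and aldosterone) in replication 1, 11891 and 11622 in replication 2, and 6348 and 5841 in replication 3. Both arrays of replication 2 stood far above the other 4, and the highest replication was 1.92-fold above the lowest (adjusted p = 0.00201 by limma's F test). Psmb2, a structural beta subunit, was also highest in replication 2, with 12201 and 10700 there, 8663 and 8245 in replication 1 and 6428 and 6791 in replication 3. It spanned 1.72-fold (adjusted p = 0.0111), and the 3 replications did not overlap.

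Psme3, the nuclear PA28-gamma activator, had the widest span of the 51 tested probe sets, 2.21-fold (adjusted p = 0.00460). It read 3039 and 3158 in replication 1, 4398 and 4550 in replication 2, and 7388 and 6447 in replication 3. Psmb3, another structural beta subunit, was lower in replication 3, at 12431 and 14324, than in replications 1 and 2, at 18194 and 18831 and at 18111 and 17974 (1.39-fold, adjusted p = 0.0295). The called Psmd11 probe set was highest in replication 1, with 5278 and 5186, against 3111 and 3161 in replication 2 and 3709 and 3999 in replication 3 (1.66-fold, adjusted p = 0.0261). The brightest Psmd11 probe set did not share this order: its means were 18696, 18362 and 15600 in replications 1, 2 and 3 (adjusted p = 0.166). Psma2, an alpha ring subunit and the next by p, had 23330 and 20620, then 21737 and 20067, then 26421 and 29554, highest in replication 3 but not past the threshold (adjusted p = 0.0637).

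**Figure D4:**
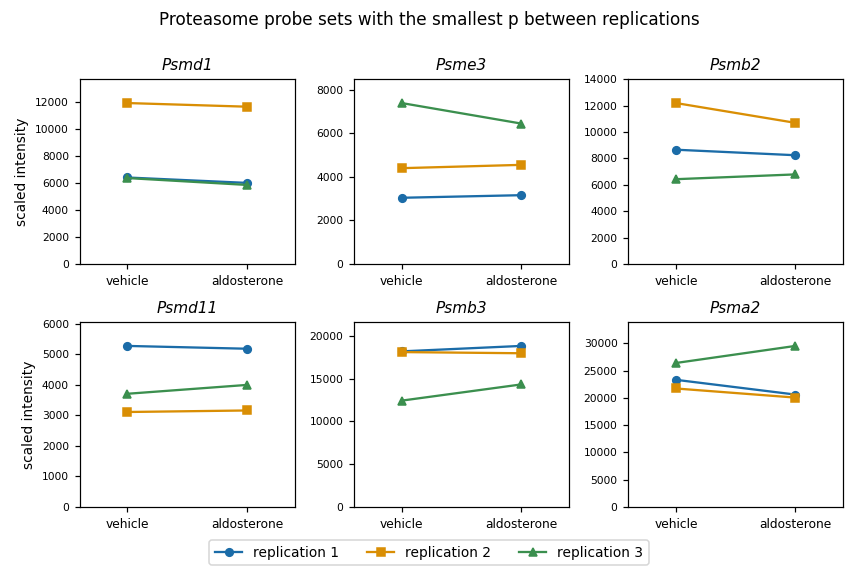
Scaled intensity (vertical axes, from 0) with vehicle and with aldosterone for the 6 proteasome probe sets with the smallest p between replications; each line joins the 2 arrays of 1 replication. Psmd1 and Psmb2 are highest in replication 2, Psme3 and Psma2 in replication 3, and Psmd11 in replication 1, while Psmb3 is lowest in replication 3.

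No common order ran through the particle. Replication 1 was the highest for 16 of the 51 members, replication 2 for 19 and replication 3 for 16, against 30.6%, 33.2% and 36.2% of all tested probe sets, and of the 5 called ones 2, 2 and 1 were (3.05%, 1.96% and 2.82% of all tested were called with that order). Both arrays of 1 replication stood above or below the other 4 for 35 of the 51, against 60.3% of all tested. The lowest replication was the third for 23 of the 51 (45.1%, against 34.8% of all). Of the 12 probe sets for 10 other regulatory particle subunits encoded by Psmd genes, 8 were highest in replication 2, and of the 7 alpha ring probe sets 0 were. Some of the 8 were nearly flat, with spans of 1.03-fold for Psmd4, 1.04-fold for Psmd13 and 1.05-fold for Psmd8. The calls became fewer when either array of replication 1 was left out and more when either array of replication 2 was. The share called over all tested probe sets moved the same way, and each of these fits leaves 1 array in a replication. Psmb3 was lost without the vehicle array of replication 3 and after scaling to a common median (adjusted p = 0.109 by limma's F test in the latter). Leaving out either array of replication 1 lost calls other than Psmb3. The epithelial claudins Cldn4 and Cldn7 were 4.81-fold and 3.09-fold apart between replications and lowest in replication 3 (adjusted p = 3.81e-04 and 9.40e-04), and 7 of the 8 tested epithelial probe sets were lowest there; their part in the differences of the proteasome genes was not tested.

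**Figure D5:**
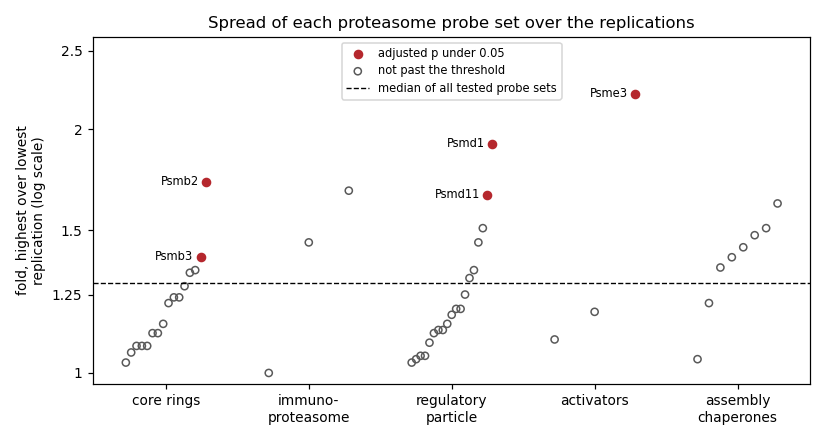
Ratio of the highest to the lowest replication mean (vertical axis, log scale) for each tested proteasome probe set, by class (horizontal axis; within a class, points are ordered by value). Psmc3ip and Psme3ip1, which are not subunits, are not drawn. Filled points have an adjusted p under 0.05, and the dashed line is the median of all tested probe sets, 1.29-fold; most points lie below it, and Psme3 stands highest at 2.21-fold.

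The immunoproteasome genes parted over the replications. Psmb8 was at 4608, 4590 and 4605 in replications 1, 2 and 3, means of 2 arrays each, and Psmb10 was at 4636, 5234 and 3584 (1.45-fold, adjusted p = 0.0648). Psmb9 ran the other way, at 1109, 870 and 1496 (1.68-fold, adjusted p = 0.159), so neither of the latter passed. Genes of antigen presentation and interferon signalling were described beside them from a list of 20 genes, of which 16 were on the array with 22 tested probe sets. Tap1, which shares its start region with Psmb9, was at 1628, 1588 and 2166 in its tested probe set, also lowest in replication 2 and highest in replication 3, without passing (adjusted p = 0.243). Its other probe set, too dim to be tested, was highest in replication 2 and lowest in replication 1. Tap2, of the same list, was highest in replication 2 and lowest in replication 3, and 5 of the 22 were highest in replication 2. Among the MHC class I genes, 2 of the 3 probe sets of H2-D1 passed, at adjusted p = 0.0178 and 0.0360, and both were lowest in replication 2 and highest in replication 3 (18155 against 26188, and 13123 against 18419). Of the 3 tested probe sets of H2-K1, another class I gene, 0 passed: the brightest was also lowest in replication 2 and highest in replication 3, and the other two were highest in replication 2. Of the 22 probe sets, 12 were highest in replication 3 (54.5%, against 36.2% of all tested) and 2 were called (9.09%, against 7.82%). Several belong to 1 gene or to near-identical class I genes, whose signals may be shared.

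After aldosterone, 0 of those 22 passed, with 10 higher and 12 lower by sign and a median log2 difference of -0.0054. The 3 with the smallest p were Isg15, an interferon-induced ubiquitin-like protein, at 0.39 (standard error 0.208), the peptide transporter gene Tap2 at -0.47 (0.306) and the MHC class I light chain B2m at 0.22 (0.165). Of 31 listed genes of ubiquitin handling and proteasome assembly, 16 were on the array with 20 tested probe sets, of which 0 passed, 7 were higher and 13 lower, with a median of -0.037. Zfand5, a zinc finger protein that binds ubiquitin, stood at 0.25 (0.162), and was higher in 3 of 3 replications. Ufd1, a cofactor of the Vcp unfoldase, was at -0.29 (0.216), and the shuttle gene Ubqln2 was at -0.28 (0.205). The 2 probe sets of Nfe2l1, which drives transcription of proteasome genes when the proteasome is impaired, gave 0.23 and -0.037. Between replications, 2 of the 20 passed, against 7.82% of all tested. These were Usp14, the ubiquitin protease bound to the regulatory particle, and 1 of the 2 tested probe sets of Ubqln1, another shuttle. Usp14 was at 3214, 2824 and 4502 (adjusted p = 0.0365), and that Ubqln1 probe set at 7085, 8020 and 10510 (adjusted p = 0.0354). The other Ubqln1 probe set was at 4792, 4694 and 5641 (adjusted p = 0.341). Usp14 and both Ubqln1 probe sets were highest in replication 3, as was Psme3. On the list 9 of the 20 were highest there (45.0%, against 36.2% of all tested).

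Marker genes of other cells gave no call between treatments either. Of 14 listed leukocyte markers, 13 were on the array in 20 probe sets, of which 7 were tested and 0 passed. The summed intensity of all 20, tested or not, was 10365 to 15301 on the vehicle arrays and 9684 to 12458 on the aldosterone arrays. By sign 2 of the 7 were higher and 5 lower. The 3 of smallest p were Cd68 at -0.41 (standard error 0.315), Cd14 at -0.18 (0.189) and Cd79a at -0.52 (0.662). Of 11 listed epithelial and collecting duct markers, 10 were on the array and 8 probe sets of 7 genes were tested, with 0 past the threshold. The sums over all 13 of their probe sets, tested or not, were 52561 to 73470 with vehicle and 47966 to 70183 with aldosterone. By sign 3 of the 8 were higher and 5 lower. The smallest p belonged to Krt18 at -0.18 (standard error 0.130), a probe set of Krt19 at -0.23 (0.241) and Krt8 at -0.14 (0.157).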

How the data were processed

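The deposited table held 1 linear intensity per probe set and array for 6 arrays (vehicle and aldosterone, 3 each). Which software and scaling target produced the deposited intensities is not given in the sources used here. The 2% trimmed mean was 86.5 for aldosterone in replication 3 and 2488 to 2493 elsewhere. As they differed by over 10%, each array was scaled to their mean, 2090 (factors 0.838 to 0.840, and 24.2). Log2(intensity + 53.0) was used, the pseudocount being the 10th percentile, so folds of dim probe sets are understated. Probe sets at or above the 40th percentile of mean log2 (8.87) were tested with limma 3.58.1 in R 4.3.3, two-sided, with an intensity trend and Benjamini-Hochberg adjustment at 0.05. Treatment was tested on group alone, and replications by an F test beside treatment. The number of arrays limits the precision.

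Arrays were paired by replication number: per the labels a number marks 1 repeat of the experiment, and same-numbered arrays deviated together from their groups (correlations of 0.377, 0.387 and 0.471 over tested probe sets). Symbols came from the array's annotation, and all 58 matched RefSeq (GRCm38.p6) by Entrez identifier, with 0 changed. Members and lists were chosen with earlier results of these data known. By rule, array values were given for immunoproteasome genes, their counterparts, Psme1, the extremes of each class and the 6 smallest p between replications, and the 3 of smallest p were named from each other list. Cldn4, Cldn7, Tap1, H2-D1, H2-K1, Cd74, Csf1r, Psmd10, Nfe2l1, Usp14, Ubqln1 and the markers of the cell line were named after their values were seen. The models were tested on simulated data, in which the planted treatment changes were larger than those of any tested member. Recovery of smaller changes was not tried.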

Additional observations from a re-analysis of the deposited data

How the results depend on the processing

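The count of proteasome probe sets called after aldosterone was 0 in each of the 18 alternatives run, with the replicate block among them. Only 1 of these, the block joined with no intensity trend, was chosen after seeing the data. Each class median stayed within 1 SD of its 3 replication medians except for the immunoproteasome (-0.078 without the third vehicle array, and -0.078 to 0.044 over the leave-outs) and the activators (-0.086 without the third aldosterone array, -0.070 without the second replication, and -0.086 to -0.011 over the leave-outs). Of 913 alternative values for the 51 single differences, 128 changed sign, and 15 probe sets kept 1 sign throughout, Psma6 at 0.16 to 0.21. After scaling to a common median, the median difference of all tested probe sets was -0.090, 0.063 and 0.097 in replications 1, 2 and 3. Under the main scaling it was -0.0038, 0.0078 and -0.016. The 5 calls between replications (7.82% of all tested were called) became 8 of 46 with the filter at the 60th percentile (13.9% of all), 8 with replication alone (10.7%), 0 with no intensity trend (0.0268%), and 1 to 9 on leaving out single arrays (0.590% to 17.3%). The cause was not tested.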
